A study of Salmo salar with 18 samples.

Results

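The probes of cyp1a1 (C161R028) and ABCG2 (C045R156), 2 of the 43689 probes on an Atlantic salmon oligonucleotide array, were followed across 18 livers. They were chosen because both genes are known targets of the aryl hydrocarbon receptor and because earlier results of these data had shown both lower in warmed fish. Their differences between warmed and control fish are therefore given as a description, with no test. Liver RNA of 1 fish (Cy5) was hybridised on each array against 1 reference (Cy3) that pooled RNA of the study fish, and every value below is the log2 ratio of fish over reference. A value of 0 means as much signal as the pool, and a step of 1 is a doubling.

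All fish were post-smolts kept in seawater tanks, fed to satiation and fasted before sampling. Warm & Hypoxic (WH) fish were first brought to 70% air saturation, held there for 2 weeks and then warmed to 20 °C, by 1 °C per week, at that oxygen level. Warm & Normoxic (WN) fish had the same warming at 100% air saturation, both warmed groups were sampled after 3 days at 20 °C, and Control (CT) fish stayed at 12 °C and 100%. Each treatment had 2 tanks, with 3 fish per tank on the arrays, so n = 6 fish per group. Treatment was given to tanks, and p-values below measure the spread between fish, with tank-mates counted as independent.

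The aryl hydrocarbon receptor (AhR) is a ligand-activated transcription factor that rests in the cytoplasm in a complex with the chaperone HSP90. On binding planar aromatic compounds it enters the nucleus and pairs with ARNT, a partner it shares with the hypoxia-inducible factors. The pair induces CYP1A, a heme-containing monooxygenase that oxidises aromatic compounds and whose induction in fish liver is a standard marker of exposure to them. ABCG2 is an ATP-binding cassette transporter in cell membranes that exports urate, conjugates and many foreign compounds, a later step of the same defence.

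The cyp1a1 probe took its name from the study's list of quantitative PCR genes, where it is paired with 1 primer set. The amplicon of that primer set is shown because it is the stretch of cyp1a1 transcript to which the name is tied. Capitals mark the 21-base forward primer and, at the other end, the 22-base reverse primer as it reads on the sense strand.

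cyp1a1 amplicon, 136 bases: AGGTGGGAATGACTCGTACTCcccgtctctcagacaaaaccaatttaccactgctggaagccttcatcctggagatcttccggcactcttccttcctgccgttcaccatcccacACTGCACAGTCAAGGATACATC
cyp1a1 reverse primer, as ordered: GATGTATCCTTGACTGTGCAGT

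RefSeq lists 2 salmon genes with cyp1a as a synonym, and whether the probe detects both was not tested. A second probe annotated CYP1A1, C206R091, matched salmon and rainbow trout cyp1a in the study's annotation and is followed beside the first. The name ABCG2 came from a protein match of the contig that holds the probe. The probe's own listed nucleotide match was an uncharacterised rainbow trout transcript, with no salmon match listed, so the name is uncertain. The probe sequences were not used here.

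In warmed liver the cyp1a1 ratio was lower than in CT liver in all 12 fish. In WH fish it was 0.11, −0.67, −0.96, −0.24, −0.998 and −0.16. In WN fish it was −0.92, −1.58, −1.36, −0.65, −1.03 and −0.54. In CT fish it was 1.28, 0.94, 0.91, 0.78 and 0.69, with CT-4 left out for a spot flag. Neither warmed group overlapped the CT fish, and WH fish lay between WN and CT fish on average. The background was taken over probes with a value in every fish of the warmed group compared and in at least 5 CT fish. Of 22189 such probes for WH, 2.17% were below every CT fish in all WH fish. Of 20589 such probes for WN, 2.09% were below every CT fish in all WN fish. Since the probes were chosen on this contrast, nothing is read from that background.

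Mean cyp1a1 ratios were −0.49 ± 0.46 in WH fish, −1.01 ± 0.40 in WN fish and 0.92 ± 0.23 in CT fish (SD, n = 6, 6 and 5). The WH minus CT difference was −1.41 (SE 0.24, 95% interval −1.91 to −0.91), a fold of 0.377. The WN minus CT difference was −1.93 (SE 0.24, 95% interval −2.43 to −1.43), a fold of 0.262. Of 23846 probes above background, 185 had a lower difference in WH fish and 34 had a lower one in WN fish.

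**Figure D1:**
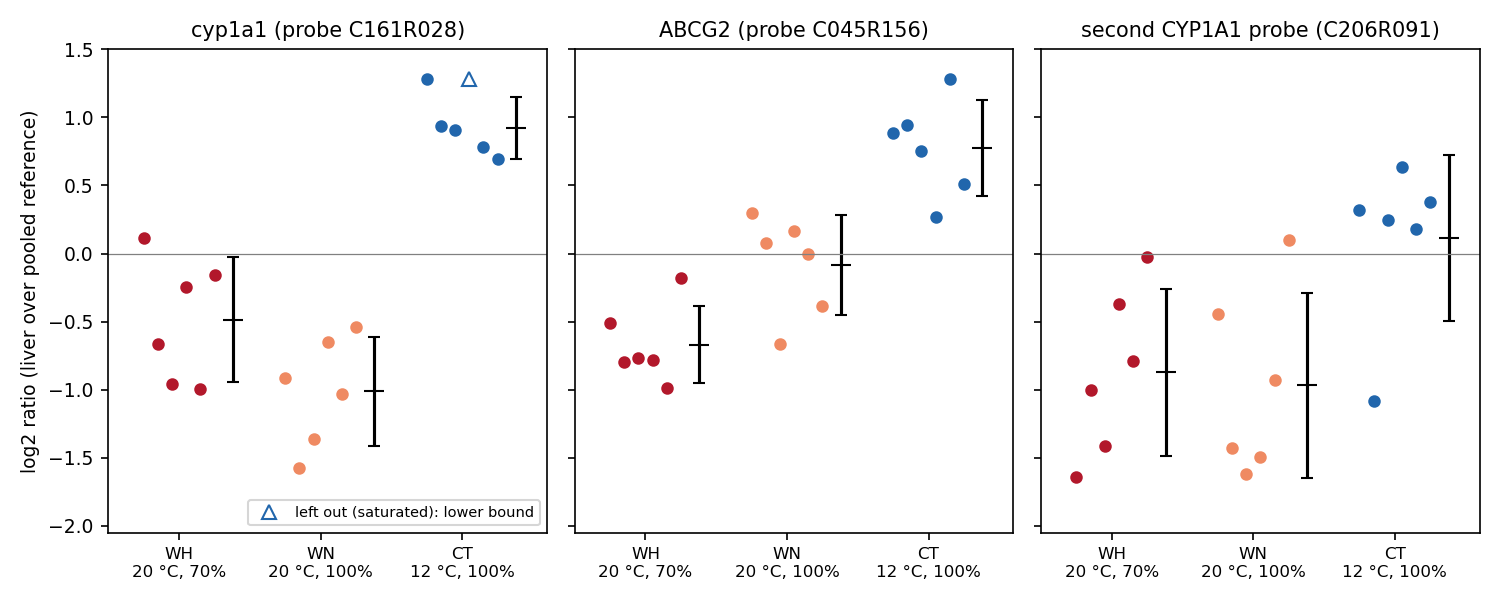
Log2 ratio of liver over the pooled reference (y axis) for each fish (points) in WH, WN and CT groups (x axis, with temperature and air saturation), for cyp1a1, ABCG2 and the second CYP1A1 probe. Bars give the mean and SD, and the open triangle is the saturated CT-4 spot, left out of the mean; cyp1a1 points of warmed fish reach 0.11 at most while the lowest CT point is 0.69.

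The flag on cyp1a1 in CT-4 was the scanner's mark for a saturated spot, together with a mark for background contamination. Its Cy5 median stood at 65535, the ceiling of the scanner, and the Cy3 median was 20278. With the flagged spot kept, the ratio was 1.28, a lower bound as far as saturation goes, because Cy5 could read no higher. What the contamination did to that ratio was not tested. With the spot kept, the WH minus CT difference became −1.47 and the WN minus CT difference −1.99. The flag thus removed a high CT value, and both differences were larger in size with it kept. The authors' own table also has no value for this spot.

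No other array carried a flag on the cyp1a1 or ABCG2 probe. The next brightest cyp1a1 spot, in CT-5, had a Cy5 median of 61203 and no flag. Cy5 medians of cyp1a1 ranged from 10704 to 27738 in WH fish, 7831 to 19100 in WN fish and 30615 to 65535 in CT fish. Its Cy3 reference stood between 16720 and 44414.5 over the 18 arrays, with a middle value of 27637 in WH, 31118.5 in WN and 23866.5 in CT. The cyp1a1 spot was thus bright in every fish, and only CT fish came near the ceiling. ABCG2 was a dim spot, with Cy5 medians of 222 to 573 in WH fish, 355 to 1439 in WN fish and 466 to 2003 in CT fish. It was above background by 2 background SDs in both channels on all 18 arrays. Its Cy3 reference ranged from 514 to 747 in WH, 636 to 1468 in WN and 220 to 1161 in CT fish. The middle Cy5 value was 391.5 in WH, 771.75 in WN and 1067 in CT fish. The middle Cy3 value was 613.75 in WH, 982.75 in WN and 421.5 in CT fish. The cyp1a1 and ABCG2 ratios thus also carry a reference signal that differed between groups, and its part in them was not tested.

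**Figure D2:**
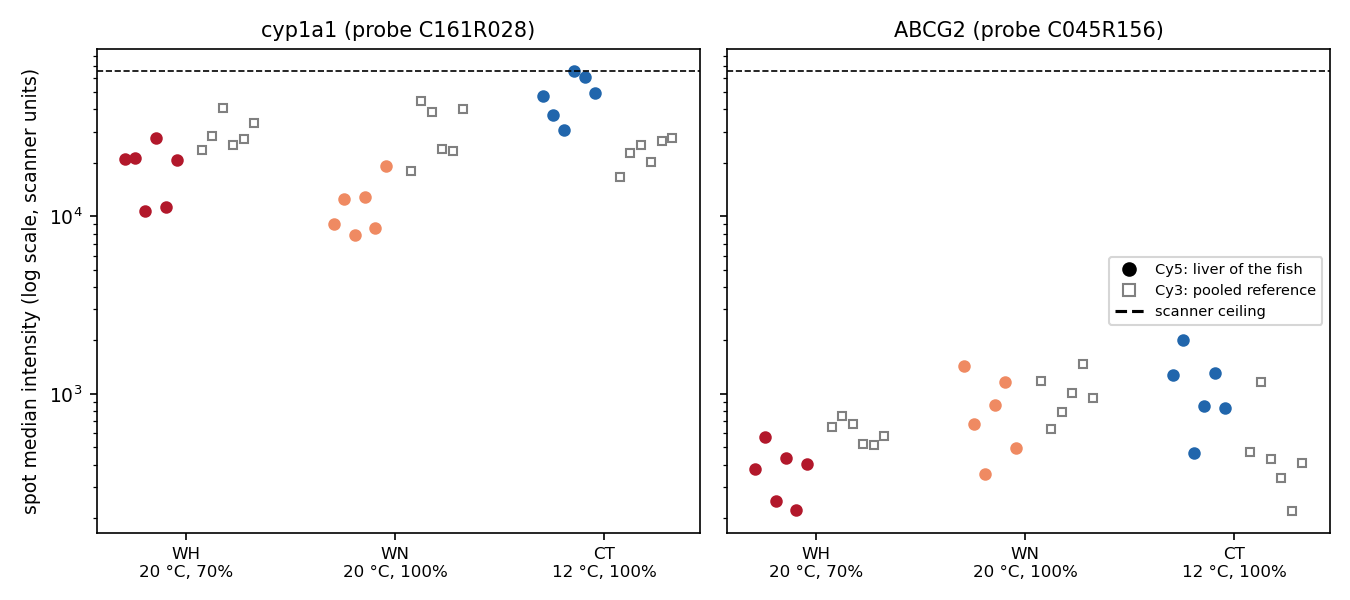
Spot median intensity in scanner units (y axis, log scale) of the cyp1a1 and ABCG2 probes for each fish by group (x axis), with filled circles for the fish's liver (Cy5) and open squares for the pooled reference (Cy3). The dashed line is the scanner ceiling of 65535, reached by cyp1a1 in CT-4 only.

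ABCG2 was also lower in warmed liver on average, with a lower mean in WH than in WN fish, although the values of these 2 groups overlapped. In WH fish its ratio was −0.51, −0.80, −0.77, −0.78, −0.98 and −0.18. In WN fish it was 0.30, 0.08, −0.67, 0.17, −0.0002 and −0.39. In CT fish it was 0.88, 0.95, 0.75, 0.27, 1.28 and 0.51. All 6 WH fish were below every CT fish, while 1 WN fish (WN-1) was above the lowest CT fish by 0.03.

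Mean ABCG2 ratios were −0.67 ± 0.28 in WH fish, −0.08 ± 0.37 in WN fish and 0.77 ± 0.35 in CT fish (SD, n = 6 each). The WH minus CT difference was −1.44 (SE 0.21, 95% interval −1.88 to −1.004), a fold of 0.368. The WN minus CT difference was −0.86 (SE 0.21, 95% interval −1.30 to −0.42), a fold of 0.552. There were 163 probes with a lower difference in WH fish and 827 with a lower one in WN fish.

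The contrast between the warmed groups had no part in choosing the probes and was tested. From low to high, mean cyp1a1 ran WN, WH, CT, and mean ABCG2 ran WH, WN, CT. The WH minus WN difference was 0.53 for cyp1a1 (SE 0.23, 95% interval 0.05 to 1.00) and −0.59 for ABCG2 (SE 0.21, 95% interval −1.02 to −0.15). By limma with Benjamini-Hochberg adjustment over 23846 probes, the adjusted p was 0.847 for both, with unadjusted p of 0.0321 for cyp1a1 and 0.0114 for ABCG2. By an exact two-sided permutation test over the 12 warmed fish, p was 0.0714 for cyp1a1 and 0.0173 for ABCG2, unadjusted, where 0.00216 is the smallest p that test can give.

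No probe at all passed in WH against WN by limma (0% called). Of the 23846 probes tested, 1377 had an unadjusted p below 0.05, with 0.411 as the smallest adjusted p. A p that misses the threshold does not show that WH and WN fish had the same level. Taken probe by probe, the intervals put the cyp1a1 level of WH fish at 1.03 to 2.00 times that of WN fish. They put the ABCG2 level at 0.492 to 0.904 times. These intervals are not adjusted for the number of probes tested, and they count tank-mates as independent. That both leave out equal levels is therefore not read as a difference between WH and WN fish.

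The cyp1a1 and ABCG2 ratios were also compared within each fish, a comparison that was picked out after the values were seen and has no test. The cyp1a1 ratio minus the ABCG2 ratio was 0.62, 0.13, −0.20, 0.54, −0.01 and 0.02 in WH fish. It was −1.22, −1.66, −0.70, −0.82, −1.03 and −0.15 in WN fish. The cyp1a1 ratio was thus the lower of the pair in 2 of 6 WH fish and in 6 of 6 WN fish. The mean was 0.18 ± 0.33 in WH fish and −0.93 ± 0.51 in WN fish (SD, n = 6 each), a difference of 1.11. That difference restates the WH minus WN differences of cyp1a1 and ABCG2 given above and is no separate evidence. Both ratios are relative to the same pool, so the within-fish values compare changes and not absolute levels of the transcripts.

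**Figure D3:**
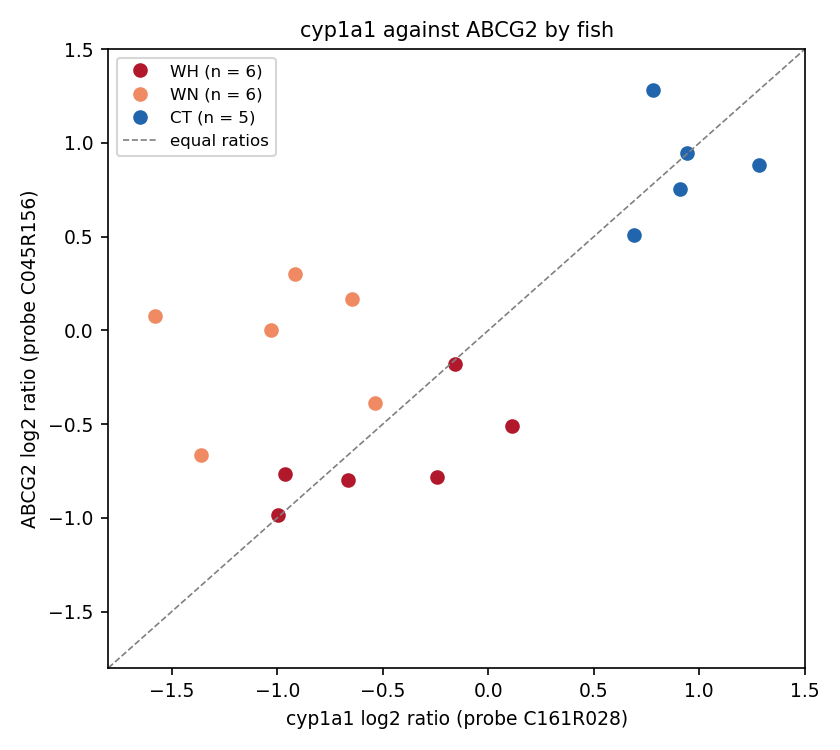
ABCG2 log2 ratio (y axis) against cyp1a1 log2 ratio (x axis), 1 point per fish, for 6 WH, 6 WN and 5 CT fish with a value for both; the dashed line marks equal ratios. All 6 WN fish lie above the line, as do 2 of the 6 WH fish, by at most 0.20.

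Both tanks of each warmed treatment were below both CT tanks for both genes. Tank means of cyp1a1 were −0.51 and −0.47 in WH, −1.29 and −0.74 in WN, and 1.04 and 0.74 in CT, the last over 2 fish. Tank means of ABCG2 were −0.69 and −0.65 in WH, −0.10 and −0.07 in WN, and 0.86 and 0.69 in CT. The tanks of a treatment differed most for cyp1a1 in WN fish.

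The arrays lay on 5 slides, 1 of which held WH and WN fish but no CT fish. The 2 WH fish on that slide had the lowest WH ratios of cyp1a1, at −0.96 and −0.998, and the lowest and the fourth lowest of ABCG2, at −0.98 and −0.77. Within slides that held both groups, the cyp1a1 difference was −1.24 to −0.83 for WH minus CT and −2.20 to −1.34 for WN minus CT, over 3 slides each. The ABCG2 difference was −2.07 to −0.81 for WH minus CT and −1.02 to −0.28 for WN minus CT, again over 3 slides each. All 12 of these within-slide values were below 0, each on 1 or 2 fish per group. Since the probes were chosen for being lower in warmed fish, nothing is read from that count. With slide as a block, the cyp1a1 difference was −1.16 (SE 0.28) for WH minus CT and −1.77 (SE 0.28) for WN minus CT. The ABCG2 difference was then −1.37 (SE 0.25) for WH minus CT and −0.79 (SE 0.24) for WN minus CT.

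Between the warmed groups, cyp1a1 was higher in WH than in WN fish on all 3 slides that held both, by 0.38, 1.22 and 0.22. Each slide held only 1 or 2 fish of either warmed group, so no difference is read from these values. ABCG2 was lower in WH fish on 2 of the 3, with differences of −0.63 and −0.54, and higher on the other by 0.21. The within-fish difference of the pair was higher in WH fish on all 3, by 0.17, 1.86 and 0.76. Its size rested most on the slide with 1.86, which held 1 WH and 2 WN fish.

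**Figure D4:**
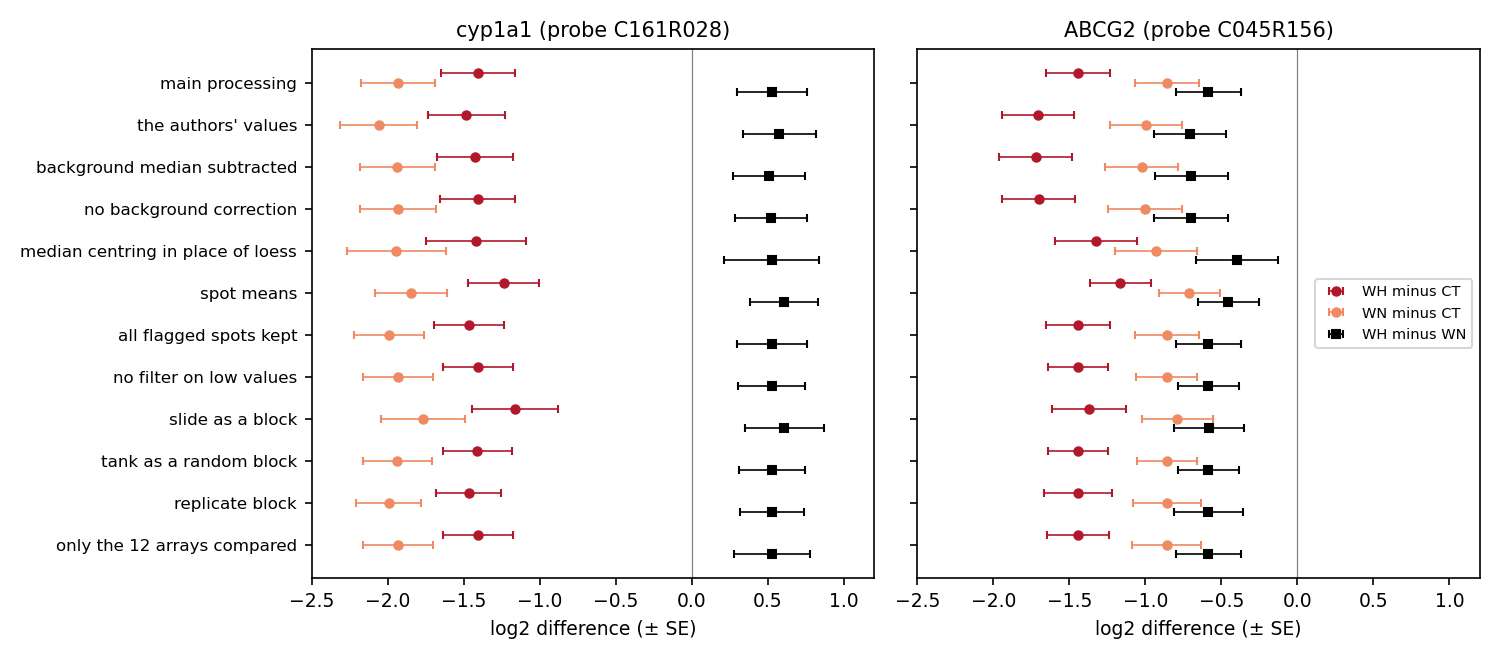
Log2 differences (x axis, point ± SE) of cyp1a1 and ABCG2 for WH minus CT, WN minus CT and WH minus WN under the processing settings listed on the y axis. Differences from CT stay below 0 in every setting drawn, and WH minus WN stays above 0 for cyp1a1 and below 0 for ABCG2.

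The second CYP1A1 probe was lower in warmed fish on average, but its groups overlapped. In WH fish its ratio was −1.64, −1.001, −1.41, −0.37, −0.79 and −0.02. In WN fish it was −0.44, −1.43, −1.62, −1.49, −0.93 and 0.10. In CT fish it was 0.32, −1.08, 0.25, 0.64, 0.18 and 0.38. The fish CT-2 stood apart from the other 5 CT fish. With CT-2 included, 2 of 6 WH fish and 3 of 6 WN fish were below every CT fish.

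The C206R091 difference was −0.99 (SE 0.33, limma adjusted p = 0.0932) for WH minus CT and −1.08 (SE 0.33, limma adjusted p = 0.0621) for WN minus CT, and neither passed. This probe's name is in the study's list of probes called on these same arrays, so it is not independent of the first. Without CT-2, a choice made after its value was seen, the difference was −1.23 in WH (limma adjusted p = 0.0235) and −1.32 in WN (limma adjusted p = 0.0169). With slide as a block they were −0.58 in WH (limma adjusted p = 0.199) and −0.58 in WN (limma adjusted p = 0.165), and neither passed. The 4 fish on the slide of CT-2 were all low, between −1.64 and −1.08, whatever their group.

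Between the warmed groups the second probe did not repeat the order of the first, with a WH minus WN difference of 0.10 (SE 0.33, 95% interval −0.59 to 0.78, limma adjusted p = 0.976). That interval also holds the 0.53 of C161R028.

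Fish-to-fish variation of cyp1a1 was set against that of ABCG2 and of the second CYP1A1 probe within groups, in 6 relations. CT fish were left out because only 5 had a cyp1a1 value. With ABCG2, Pearson's r was 0.71 in WH fish (exact permutation p = 0.114, adjusted 0.523, Spearman's rho 0.77 with exact p = 0.103, adjusted 0.617, n = 6). In WN fish r was 0.13 (exact permutation p = 0.822, rho 0.14 with exact p = 0.803, n = 6), and over the 12 warmed fish it was −0.16 (permutation p = 0.633, rho −0.06 with p = 0.856). With the second CYP1A1 probe r was 0.13 in WH fish (exact permutation p = 0.781, rho −0.03 with exact p = 1, n = 6). It was 0.62 in WN fish (exact permutation p = 0.189, rho 0.54 with exact p = 0.297, n = 6) and 0.35 over the 12 (permutation p = 0.261, rho 0.28 with p = 0.382).

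No relation passed, and all adjusted p-values were 0.523 or higher. Each r was computed again without the 2 fish farthest from the median of cyp1a1, of 6 in a group or 12 in both. With ABCG2 it was 0.61 in WH fish, 0.86 in WN fish and 0.08 over both groups. With the second CYP1A1 probe it was then 0.99, 0.21 and 0.68 for WH, WN and both. Values that move this far with 2 fish do not fix a relation in either direction.

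The probes whose ratios ran closest to cyp1a1 over the 17 fish with a value were ranked by Pearson's r among 18808 probes with a value in all of them. Fish of all groups enter this r, so the group difference that chose cyp1a1 sets much of it. The first was NEDD8 (C154R044, r = 0.93), a ubiquitin-like protein that is attached to cullins, and the third was PSMA3 (C137R022, r = 0.90), a subunit of the 20S proteasome. The other 3 of the first 5 had no name in the annotation read here. ABCG2 ranked 399th (r = 0.70) and the second CYP1A1 probe 752nd (r = 0.63). After the group means were removed, the first 5 had r of 0.80 to 0.82, and PTTG1 (C210R035, securin, r = 0.80) was the 1 with a name. ABCG2 then ranked 1980th (r = 0.34).

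For ABCG2, over 18 fish and 18650 probes, the first 5 had r of 0.85 to 0.91. The 1 with a name was APPBP2 (C134R156, r = 0.85), a substrate receptor of a cullin-based ubiquitin ligase. After removal of the group means the first 5 had r of 0.75 to 0.84 and none had a name. These correlations share arrays and reference and are given as a description.

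Gene names were at hand for 1505 probes, 1493 of them from the study's own list of probes called in WN fish. The counts that follow are therefore no independent evidence of direction, and genes called in WH fish only are under-represented. Over all 23846 probes, 5.14% passed in WH against CT (2.42% higher and 2.72% lower) and 4.94% in WN against CT (1.86% higher and 3.08% lower), with median differences of 0.04 and 0.01. Of the 1495 named probes tested, 35.9% passed in WH (294 higher and 242 lower) and 49.2% in WN fish (367 higher and 368 lower), with median differences of −0.36 and −0.64, and it is this share that the counts of the lists stand beside. No probe was named AHR, ARNT or AHRR among these, so the receptor and its partner were not analysed here.

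Of the receptor's complex, the 3 named probes were all chaperones and all higher in warmed liver. HSP90AA1, the inducible HSP90, was higher by 1.97 (SE 0.28, limma adjusted p = 0.000149) in WH and 1.36 (SE 0.28, adjusted p = 0.00564) in WN fish at C182R027. Its other probe, C251R099, was higher by 1.47 in WH and 1.05 in WN fish. HSP90AB1, the constitutive form, was higher by 1.16 (adjusted p = 0.00245) in WH and 0.79 (adjusted p = 0.0392) in WN fish. None passed in WH against WN, with differences up to 0.61 not called. HSP90 has many clients besides the receptor.

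Of the receptor's target genes, 4 probes were named, namely the 2 chosen probes, the second CYP1A1 probe and NFE2L2. NFE2L2 encodes NRF2, the transcription factor of the antioxidant response, and was higher by 0.90 (SE 0.19, adjusted p = 0.00634) in WH and 0.91 (SE 0.19, adjusted p = 0.00632) in WN fish.

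Beside the chosen cyp1a1 probe, 6 probes of phase I enzymes, which oxidise foreign and internal substrates, were named. Of these 1 fell and 1 rose in WH, and 2 fell and 1 rose in WN fish, a share close to that of all named probes. CYP3A4, a broad drug and steroid oxidase in mammals, fell by 0.87 in WH (adjusted p = 0.00545) and by 0.68 in WN (adjusted p = 0.0314). CYP4V2, a fatty acid hydroxylase, fell by 0.78 in WN (adjusted p = 0.0249), with −0.56 in WH (adjusted p = 0.119). CYP2A6 rose by 1.15 in WN (adjusted p = 0.0270), with 0.87 in WH (adjusted p = 0.101). FMO5, a flavin monooxygenase, rose by 1.63 in WH (adjusted p = 0.00833), with 1.22 in WN (adjusted p = 0.0539).

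None of the 3 named phase II probes, which belong to conjugating enzymes, passed in either group. UGT2A1, a glucuronosyltransferase, was at −0.56 in WH and −0.63 in WN, and 2 probes of a theta-class glutathione transferase were at −0.58 and −0.51 in WH and −0.54 and −0.63 in WN. The study's lists name these probes GSTT2B, and 1 of them also gstt1. The 1 named transporter probe beside ABCG2 was ABCD3, a peroxisomal importer of fatty acids. It fell by 0.83 in WN (adjusted p = 0.0267), with −0.69 in WH (adjusted p = 0.0652).

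**Figure D5:**
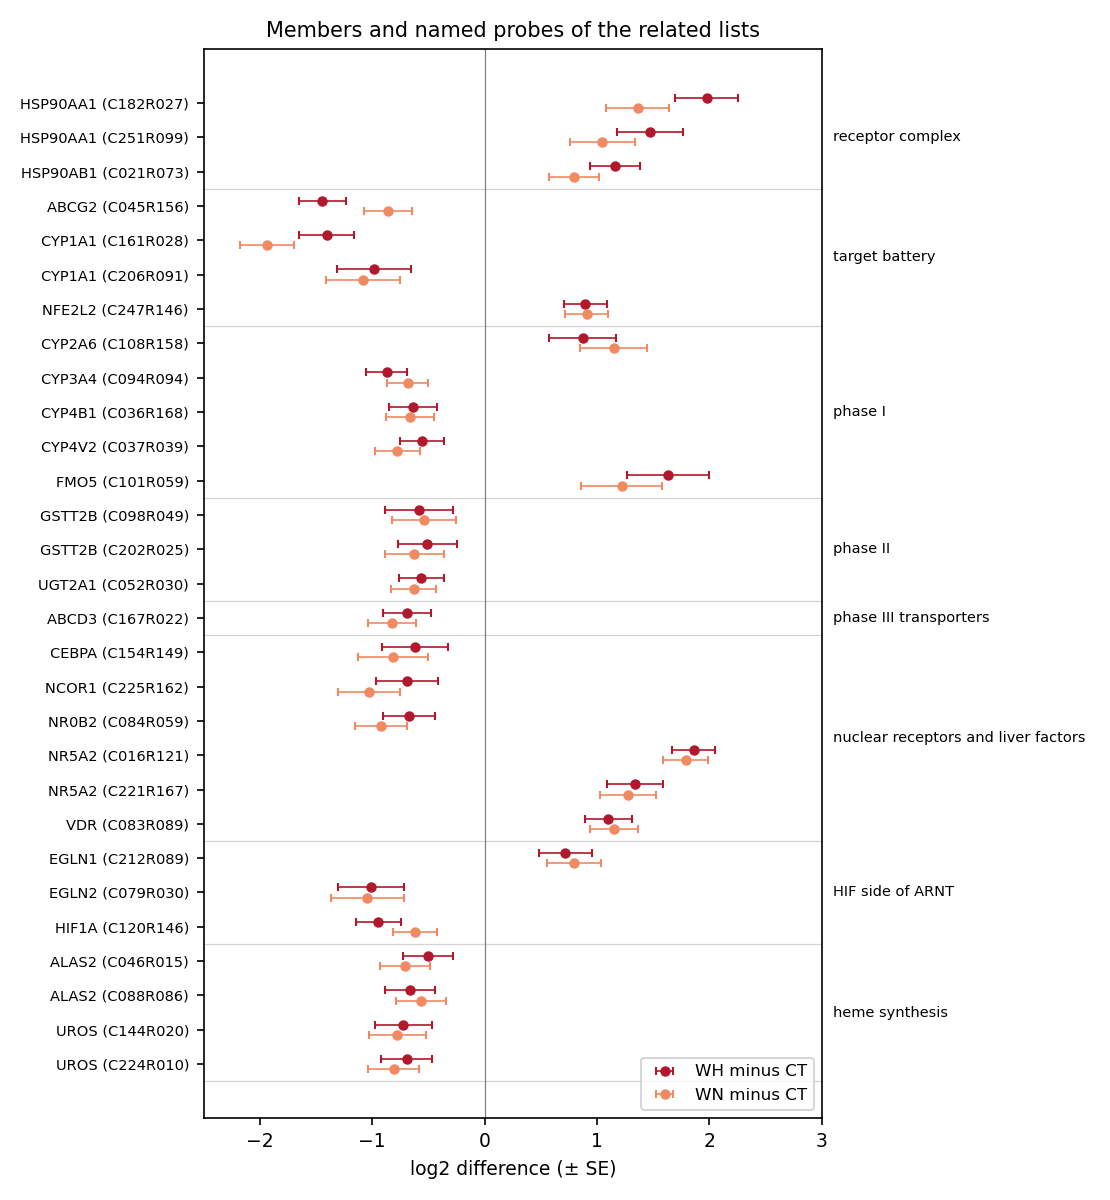
Log2 difference (x axis, point ± SE) for WH minus CT and WN minus CT of each named probe (y axis) in the lists named at the right, with the cyp1a1 and ABCG2 probes under the target battery. HSP90AA1, HSP90AB1, NFE2L2 and NR5A2 lie right of 0 and the cyp1a1, ABCG2 and CYP3A4 probes left of it in both warmed groups.

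Of the liver's nuclear receptors and factors, 6 probes were named. Both probes of NR5A2, a nuclear receptor of bile acid and steroid metabolism, rose by 1.86 and 1.34 in WH and by 1.79 and 1.28 in WN (adjusted p up to 0.00351). VDR, the vitamin D receptor, rose by 1.10 in WH and 1.15 in WN (adjusted p up to 0.00258). NR0B2, a corepressor that acts on NR5A2, fell by 0.92 in WN (adjusted p = 0.0206), with −0.67 in WH (adjusted p = 0.102). NCOR1, another corepressor, fell by 1.03 in WN (adjusted p = 0.0328), with −0.69 in WH (adjusted p = 0.173). CEBPA did not pass in either group, at −0.62 in WH and −0.82 in WN.

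On the hypoxia side of ARNT, HIF1A, the oxygen-regulated subunit that pairs with ARNT, fell by 0.95 in WH (adjusted p = 0.00536), with −0.62 in WN (adjusted p = 0.0748). EGLN2, a prolyl hydroxylase that marks that subunit for destruction, fell by 1.01 in WH (adjusted p = 0.0474), with −1.04 in WN (adjusted p = 0.0700). EGLN1, of the same family, was at 0.72 in WH and 0.79 in WN and passed in neither. In WH against WN the HIF1A difference had an adjusted p of 0.862, so a difference by oxygen was not called.

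CYP1A carries heme, and 4 probes of heme synthesis are given here. UROS, an enzyme that closes the porphyrin ring, fell by 0.81 in WN at C224R010 (adjusted p = 0.0414), with −0.69 in WH. Its other probe and both probes of ALAS2, the erythroid first enzyme, were between −0.50 and −0.78 and passed in neither group.

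Few cell type markers had a name, so the tissue label could not be checked with the usual hepatocyte genes. APOH, a plasma protein made by hepatocytes, was the 1 named hepatocyte marker and rose by 1.40 in WH and 1.62 in WN (adjusted p up to 0.0112). Both probes named as leukocyte markers rose, NCKAP1L and a probe that the study's lists call MPO and also epx, eosinophil peroxidase, by 1.71 and 1.39 in WH and by 1.19 and 1.41 in WN (adjusted p up to 0.0267). Their mean ratio ranged from 0.18 to 1.02 in WH fish, from −0.07 to 0.97 in WN fish and from −1.66 to −0.47 in CT fish. Whether these probes detect the transcripts they are named for was not tested, so a rise in leukocytes is not read from them. Both probes of ALAS2, the 1 named erythrocyte marker, passed in neither group, with a mean ratio of −0.84 to 0.35 in WH, −0.78 to −0.003 in WN and −0.16 to 0.58 in CT fish. Of 2 probes on the list of biliary and endothelial markers, KRT8 rose by 0.79 in WN (limma adjusted p = 0.0450), with 0.68 in WH (limma adjusted p = 0.0894). The other, CLDN3, passed in neither group, at 0.96 in WH and 0.30 in WN. Whether either is particular to those cells in salmon liver was not tested. No pancreas marker was named. In whole liver, fewer cells of a type and less RNA per cell cannot be told apart, and the part of leukocyte content in the cyp1a1 and ABCG2 values was not tested.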

How the data were processed

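The arrays were Agilent salmon arrays with 18 fish in 3 groups of 6, read by group and fish number from the sample titles. The authors scanned the slides with balanced channel gains and extracted the deposited Cy5 and Cy3 intensity medians, backgrounds and spot flags with Imagene. The authors' table of deposited log2 values holds their background-corrected, loess-normalised ratios and was used as an alternative (r of 0.959 to 0.996 with the values computed here, over 16949 probes). Column medians of that table lay between −0.28 and −0.02, and its scale and direction followed from this comparison. Quality marks and probe identifiers (other text fields of the deposited files) named flagged spots. Each array had 43689 probes, of which 8.93% to 17.3% were flagged and left missing. From 731 to 1094 probes were saturated in Cy5 and 678 to 1114 in Cy3.

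Spot medians were corrected with normexp (offset 50) and normalised by loess within arrays in limma 3.58.1 (R 4.3.3). A probe was kept when it was above background by 2 background SDs in at least 1 channel on 75% of arrays (14 of 18), which left 23846. One limma fit covered the 3 groups, with Benjamini-Hochberg adjustment and a threshold of 0.05; the SAM test of the authors' methods was not run because its package was not installed. Exact permutation tests and correlations used scipy. The number of arrays limits the precision.

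The probes and the lists were chosen with earlier results of these data known. Named were the chosen probes and any other CYP1A or ABCG2 probe, every receptor-complex and CYP1 probe, up to 6 called probes of each other list by size of change, and the 5 probes most like each chosen probe. Other probes of small lists are given for completeness, and some items of the lists are not reported here. Names came from supplementary tables of the study (1505 probes), in which entries called in WH fish only and part of those called in WN fish were not readable. The study's PCR measurements were not analysed here. RefSeq (Ssal_v3.1) was used for gene names only, since the files name no build. Slides are those of the sample titles, which matched the slide numbers in the scanner headers on all 18 arrays.

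Alternatives were the authors' values, other background corrections, median centring, spot means, flagged spots kept, other detection filters, slide, tank or fish number as a block, the 12 arrays compared alone, and each array left out in turn.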

Additional observations from a re-analysis of the deposited data

Results flagged for a closer look

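The second CYP1A1 probe (C206R091) in CT fish was flagged because its lowest value, −1.08 in CT-2, lay far below the other 5 CT fish, which ran from 0.18 to 0.64. The gap exceeded Dixon's 95% critical value for 6 samples, which chance passes in about 1 group of 20. The rule was run on cyp1a1, ABCG2 and this probe in each of the 3 groups, so a pass somewhere is likelier than that. The other fish on the slide of CT-2 were also low for this probe, as given above. CT-2 was not apart for cyp1a1 at C161R028 (0.94) or for ABCG2 (0.95).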

How the results depend on the processing

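The differences of cyp1a1 and ABCG2 from CT kept their direction under every alternative run. For cyp1a1, and for ABCG2 in WH fish, no warmed fish reached a CT value, so leaving out an array could not turn the direction. Over settings, cyp1a1 ranged from −1.48 to −1.16 in WH and from −2.06 to −1.77 in WN, and ABCG2 from −1.72 to −1.17 in WH and from −1.02 to −0.71 in WN. WH minus WN ranged over settings from 0.51 to 0.61 for cyp1a1 and from −0.71 to −0.40 for ABCG2. The −0.40 came with median centring (SE 0.27). With each array left out, WH minus WN ranged from 0.41 to 0.63 for cyp1a1 and from −0.70 to −0.51 for ABCG2, never passing by limma (lowest adjusted p 0.692 and 0.622). The within-fish difference of the pair, added after seeing the data, ranged from 0.92 to 1.28 over settings. The exact permutation test put ABCG2 WH minus WN (−0.59) below 0.05, at an unadjusted p = 0.0173. The cyp1a1 probe was not tested under the filter that needed detection on every array, because CT-4 was flagged.

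Calls fell to 497 in WH and 473 in WN with median centring, and to 693 in WH with slide as a block, where the processing used gave 1226 in WH and 1179 in WN. They rose to 1601 in WH and 1620 in WN with tank as a random block. With each array left out they ranged from 885 to 1289 in WH and from 754 (without CT-6) to 1165 in WN. Within WN fish, r of cyp1a1 with ABCG2 was 0.42 in the authors' values, 0.64 with median centring and 0.39 with spot means, and it was 0.31 over the 12 warmed fish with median centring. In WH fish, r with the second CYP1A1 probe was −0.0809 with spot means. The WH minus WN difference of that probe turned to −0.00405 with slide as a block, and to −0.0345, −0.00898, −0.00570 and −0.0745 without WN-3, WN-4, WH-4 or WH-6. The cause of these changes was not tested.

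Fish numbers did not pair the fish, since same-numbered fish of different groups had r of −0.114 to 0.122 in their deviations and 4 of 18 correlated best with their own number. With the replicate block, 1034 probes passed in WH and 1006 in WN, and the cyp1a1 difference was −1.47 in WH and −1.99 in WN. The block put the second CYP1A1 probe at a limma adjusted p of 0.0399 in WN, and it also passed there with tank as a random block (0.0402), the filter for detection on every array (0.0474) and leaving out WN-6 (0.0226). The tank block had a consensus correlation of −0.0501, and the SE of this probe's WN minus CT difference was 0.315 with it and 0.332 without. With a negative correlation the block narrows the error, so that pass is no allowance for likeness between tank-mates. Apart from leaving out CT-2, the second CYP1A1 probe did not pass in WN under the remaining alternatives, with limma adjusted p up to 0.165. In WH it passed only without CT-2.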
